A study of Esox lucius with 13 samples.

Results

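The gut library of northern pike (*Esox lucius*) was set against the libraries of 12 other tissues of the same fish: stomach, liver, spleen, kidney, head kidney, gill, heart, muscle, testis, brain, eye and nose. The fish was 1 wild type juvenile male, and each tissue gave 1 RNA-seq library, so every value is that of 1 tissue piece of 1 animal. The study's methods call the gut piece hind gut, and 1 of its supplementary tables heads the stomach library as pyloric caecum, a blind pouch of the intestine next to the stomach. Of the 38696 transcripts of the reference transcriptome, 18384 had 10 or more fragments in gut, and these are the transcripts described. Another 8788 had 1 to 9 fragments in gut and 11524 had none.

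The hind part of the fish intestine is lined by absorptive cells with a brush border, between mucus-secreting cells, above connective tissue, immune cells and smooth muscle. It takes up lipids, peptides and ions, and in fishes it is also known for taking up whole proteins through endosomes at the apical cell surface. A bulk library mixes all of these cells, so that fewer cells of a type and less RNA per cell cannot be told apart.

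Levels are in FPKM as deposited, that is, fragments scaled by the length of the transcript and by the total of the library. With 1 library per tissue there is no test between tissues. Ratios are those of the FPKM values, and each bracketed range is an exact 95% interval for counting error in both libraries, which does not cover differences between animals or tissue pieces. A transcript was called at a given fold when gut reached that fold over the highest of the other 12 tissues and the interval stayed above 1. Where that tissue held under 3 fragments, 3 fragments stood in for it in the calls. Library totals ran between 17240414 and 22300517 fragments, with 18865437 in gut. No sequences are shown, since none came with the transcripts used here.

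Gut was the highest of the 13 tissues for 1378 transcripts, 7.50% of the 18384. It reached 2-fold over the highest other tissue for 640 transcripts (3.48%), 5-fold for 330 (1.80%), 10-fold for 223 (1.21%) and 100-fold for 65 (0.354%). Just inside and just outside the 2-fold limit lay ratios of 2.0003 and 1.9946, and around the 10-fold limit 10.02 and 9.96. The limit of 10 fragments left out 384 transcripts with 9 fragments and took in 363 with 10. The plot of gut levels against the highest other tissue shows most transcripts below the line of equal level, with a median ratio of 0.21.

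**Figure D1:**
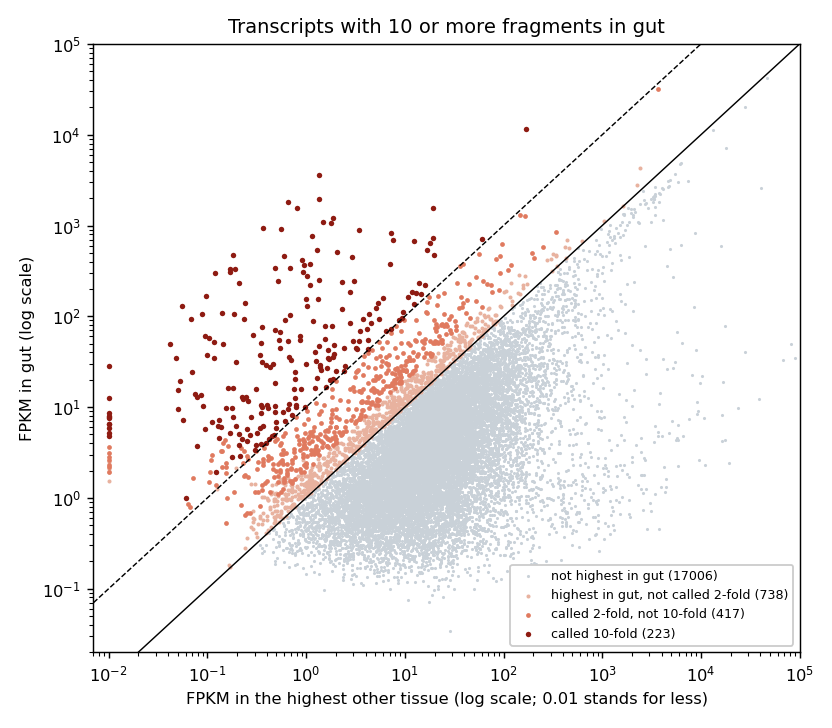
FPKM in gut (vertical, log scale) against FPKM in the highest of the other 12 tissues (horizontal, log scale) for the 18384 transcripts with 10 or more fragments in gut. The solid line is equal level and the dashed line 10 times more in gut; the 223 dark points were called at 10-fold and lie from 0.99 to 11647 FPKM in gut.

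Transcripts called at 10-fold were mostly abundant ones. Their median level in gut was 38.8 FPKM, against 3.02 FPKM over all 18384 transcripts, and 68 of the 223 were above 100 FPKM. The 65 transcripts called at 100-fold had a median of 219 FPKM and ran from 15.4 to 3569 FPKM. A ratio of this size needs many gut fragments before it can be counted. Among transcripts with 1000 or more gut fragments, 5.49% were called at 10-fold, against 0.825% of those with at least 100 but under 1000 and 0.784% of those with at least 30 but under 100. Gut was the highest tissue for 20.7% of transcripts with 1000 or more fragments and for 5.36% of those with at least 100 but under 1000. The share was 4.96% with at least 30 but under 100 and 7.20% with at least 10 but under 30. These groups were made by the same gut fragments that enter the ratio.

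The 223 transcripts held 9.54% of all gut fragments. In the other 12 libraries the same transcripts held between 0.00293% and 0.0701%, which follows from how they were chosen. The 640 transcripts called at 2-fold held 17.5% of the gut fragments.

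The same calls were made for each of the other libraries. Gut was sixth of the 13 tissues in the number of transcripts called at 2-fold, where the others ran from 140 in stomach to 5227 in brain. It was the fourth at 10-fold, where brain had 1357, testis 570, eye 405 and head kidney 9. At 100-fold the 65 transcripts of gut stood beside 66 in eye and 64 in liver, ahead of 31 in brain, while testis and nose had 0. So 34.8% of the 2-fold calls in gut also passed 10-fold, against a median of 22.2% in the other tissues, where this share ran from 2.72% in head kidney to 52.0% in liver.

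**Figure D2:**
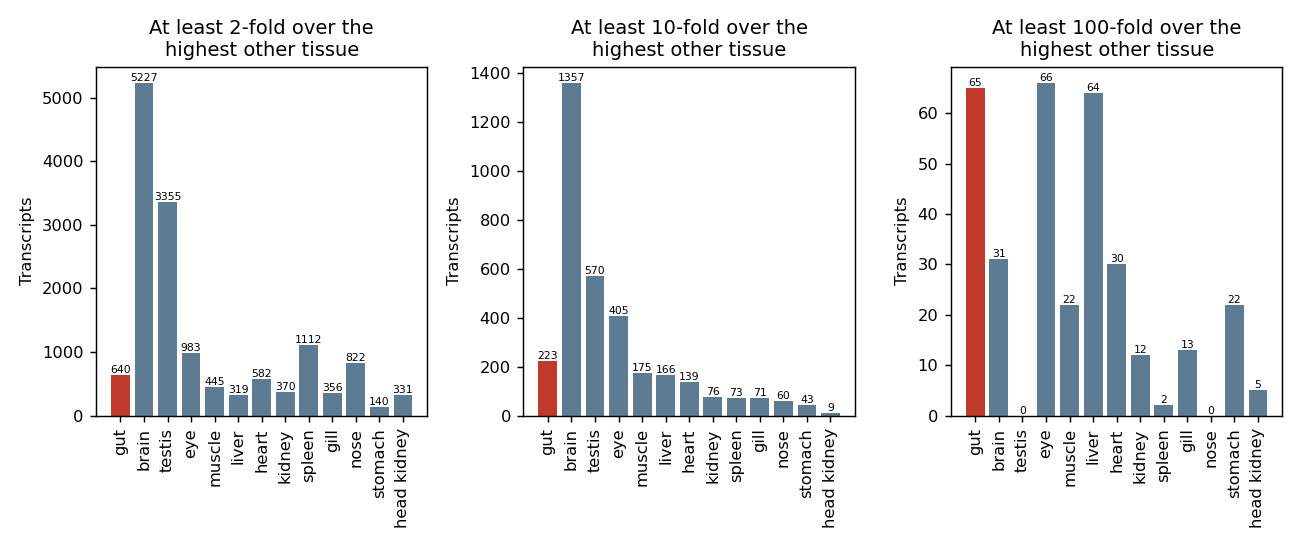
Number of transcripts called at 2-fold, 10-fold and 100-fold over the highest other tissue (vertical) in each tissue, with gut in red at the left and the other 12 in order of their 10-fold calls. Gut has 640, 223 and 65 calls.

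Among transcripts called at 2-fold or 10-fold, the tissue next to gut was most often kidney. Over all 1378 transcripts highest in gut, nose was next for 221 and kidney for 211. Of the 223 transcripts called at 10-fold, kidney was the highest other tissue for 38, liver for 29, stomach for 23, brain for 21 and testis for 21, while muscle was next for 1. A larger group of 42 had under 3 fragments in every other library, and 11 of them had none at all. At 2-fold, kidney came next for 109 of 640 transcripts, nose for 68, brain for 66, liver for 64 and stomach for 58. Stomach, also an organ of the digestive tract, was thus next for 9.06% of the 2-fold calls.

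**Figure D3:**
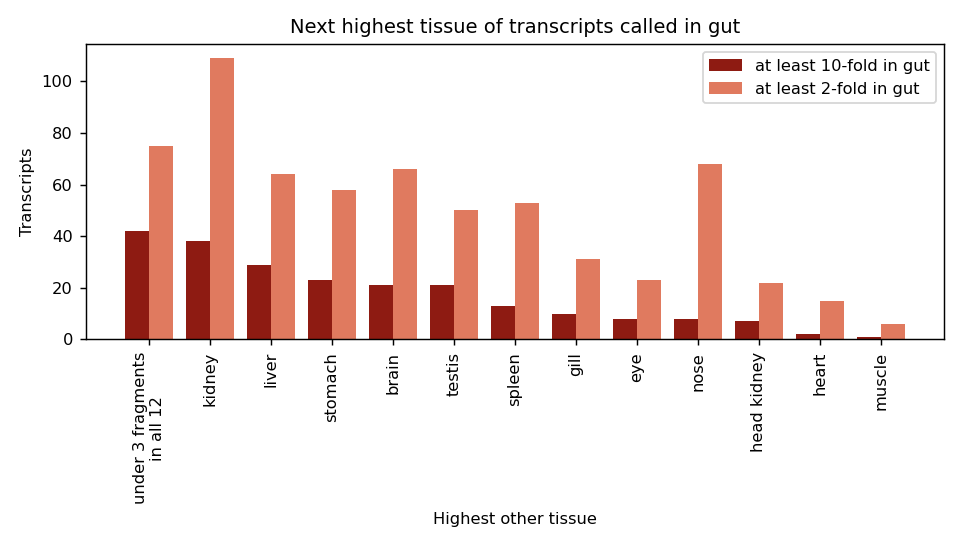
Number of transcripts called in gut (vertical) by the highest other tissue (horizontal), dark bars for 10-fold calls and light bars for 2-fold calls. Kidney has 38 and 109, and 42 and 75 transcripts had under 3 fragments in each of the other 12 libraries.

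Some transcripts were high in gut and in 1 other tissue, with both at least 10-fold over the third highest. Gut and kidney shared 38 such transcripts, the fourth largest number of the 78 pairs of tissues. Gut and liver shared 18, gut and stomach 11, gut and brain 10 and gut and eye 7, while gut shared 0 with spleen and 0 with nose. The transcripts of gut and kidney ran from 2.49 to 856 FPKM in gut (median 37.9), against 1.24 to 345 FPKM in kidney (median 12.3) and a median of 0.224 FPKM in the third tissue. Gut was the higher of both for 28 of these 38. Scaling by median-of-ratios size factors gave 23 transcripts for gut and kidney, 38 for gut and liver and 18 for gut and stomach, so the order of these pairs depends on how the libraries are scaled.

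Over the transcripts with 10 or more fragments in both libraries, levels in gut were most like those in stomach, with a Spearman rank correlation of 0.77 over 14489 transcripts. Nose followed at 0.72, gill at 0.71 and kidney at 0.70. Brain and testis were the least like gut, at 0.44 over 16411 transcripts and 0.36 over 13792. These values describe an ordering across transcripts, which are not independent replicates, and the number of transcripts compared differs between tissues. Of the 18384 transcripts with 10 or more fragments in gut, 2612 were at least 10-fold higher in gut than in stomach. Of the 15284 with 10 or more in stomach, 392 were at least 10-fold higher there. Against the other tissues, the count higher in gut ran from 1408 for kidney to 6280 for liver. The count higher in the other tissue was lowest for stomach and reached 8147 for brain. No interval is given for these pairwise counts, which are not the calls defined above. Over the 14489 shared transcripts the median log2 ratio of gut to stomach was 0.85. The 10 most abundant transcripts took 33.3% of the fragments in gut against 57.5% in stomach, and the part of this in the counts was not tested.

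**Figure D4:**
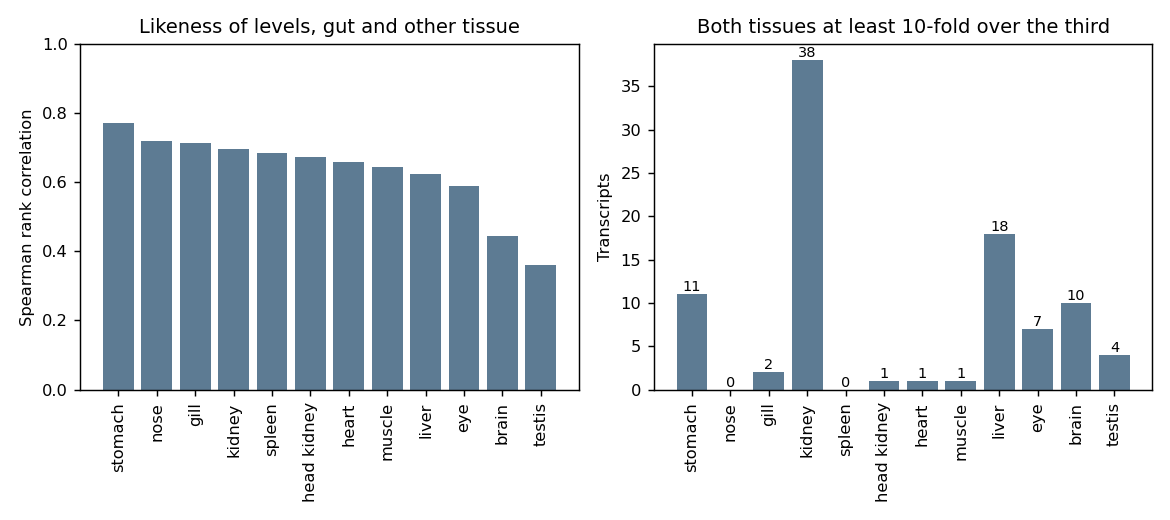
Left, Spearman rank correlation between levels in gut and in each other tissue over transcripts with 10 or more fragments in both; right, the number of transcripts with gut and that tissue both at least 10-fold over the third. Stomach has the largest correlation (0.77) and kidney the most shared transcripts (38).

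A protein name could be given to 234 of the 18384 transcripts (1.27%). Each is the name of the best protein match that the study recorded, so it places a transcript in a family rather than proving which member it is. The named transcripts are the part of the study's annotation at hand, not a random draw. Among them gut was highest for 19, or 8.12%, beside 7.50% of all transcripts described, and 9 were called at 2-fold, or 3.85% beside 3.48%. Another 688 named transcripts had under 10 fragments in gut, 482 of them 0. The label gut could not be checked against the usual intestinal markers, as no transcript was named as aminopeptidase N, meprin A, cadherin-17, cell surface A33 antigen or intelectin.

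Papilin had by far the largest ratio among named transcripts. It is a secreted protein of the extracellular matrix with protease inhibitor domains. Its level was 465 FPKM in gut (11961 fragments), against 0 to 0.592 FPKM in the other 12 tissues (median 0.043). The highest of those was liver with 18 fragments, which makes gut 785-fold higher (497 to 1326). No other tissue came near the gut value, and 3 libraries had no fragment. With median-of-ratios size factors the ratio was 216, and with the 100 most abundant transcripts left out of each total it was 413.

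Angiopoietin-related protein 7, a secreted member of the angiopoietin-like family, was at 56.6 FPKM in gut (2329 fragments), against 0 to 1.54 FPKM elsewhere (median 0.0365). Gut was 36.7-fold over liver (29.2 to 46.8), and 10.1-fold with median-of-ratios size factors or 19.3-fold with the 100 most abundant transcripts left out. Eye, at 0.547 FPKM, and kidney, at 0.348 FPKM, followed liver.

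Apical endosomal glycoprotein, known in rat from the endosomes below the apical surface of absorptive cells of the young intestine, was at 7.52 FPKM in gut. Its 59 fragments there were its only ones, with 0 in each of the other 12 libraries. Set against 3 fragments in the smallest library, gut was at least 18.0-fold higher, and the exact interval against 0 fragments starts at 14.2-fold. The transcript is short, with 416 bases.

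Ectonucleoside triphosphate diphosphohydrolase 8 splits nucleotides outside the cell and was the only member of the list of brush border peptidases and hydrolases with 10 or more gut fragments, of 2 that were named. It was at 7.83 FPKM in gut, against 0 to 0.793 FPKM in the other tissues (median 0.0445). Kidney was the highest of these, and gut was 9.87-fold over it (6.68 to 15.1). Liver, at 0.301 FPKM, and stomach, at 0.170 FPKM, came next. All 3 lie far under the gut level.

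Sushi domain-containing protein 2, a membrane protein of the cell surface, was found in every library, with 8.32 FPKM in gut against 0.150 to 1.83 FPKM in the others (median 0.581). Gut was 4.53-fold over kidney (3.75 to 5.51). Stomach had the lowest value. With median-of-ratios size factors the ratio to the highest other tissue was 1.53, and with the most abundant transcripts left out 2.93, so that the 2-fold call did not hold with the size factors.

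Leukocyte elastase inhibitor, an intracellular inhibitor of serine proteases of white blood cells, was found in every library. It was at 224 FPKM in gut, against 3.09 to 75.4 FPKM in the other 12 tissues (median 20.3). Gut was 2.97-fold over nose (2.83 to 3.12), and 4.96-fold over the highest other tissue with median-of-ratios size factors. Head kidney, at 48.0 FPKM, and gill, at 40.6 FPKM, came after nose.

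The other 3 called transcripts rested on few fragments, as did apical endosomal glycoprotein with its 59. The one named olfactory receptor 2AT4, of the odorant receptor family, had 74 fragments in gut, 4 in brain and 1 in stomach, and 0 in the other 10 libraries, nose among them. This is 6.12 FPKM in gut against 0.362 FPKM in brain, or 16.9-fold (6.33 to 63.7). Lateral signaling target protein 2 homolog, a regulator of growth factor receptor traffic, had 13 fragments in gut and 0 elsewhere, at least 3.96-fold when set against 3 fragments, with an interval against 0 fragments that starts at 2.79-fold. Von Willebrand factor A domain-containing protein 5B2 had 29 fragments in gut against 10 in head kidney, 2.89-fold (1.37 to 6.64). SCO-spondin, a large glycoprotein known from the brain's subcommissural organ, had 10 fragments in gut against 2 in nose, a ratio of 4.70 with an interval of 0.999 to 44.0, and was not called. With median-of-ratios size factors the ratio was 27.3 for olfactory receptor 2AT4 and 4.58 for von Willebrand factor A domain-containing protein 5B2. Set against 3 fragments, the ratio with these factors was 6.39 for lateral signaling target protein 2 homolog and 29.01 for apical endosomal glycoprotein, and for SCO-spondin it was 5.22, beside 3.12 on the deposited FPKM.

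**Figure D5:**
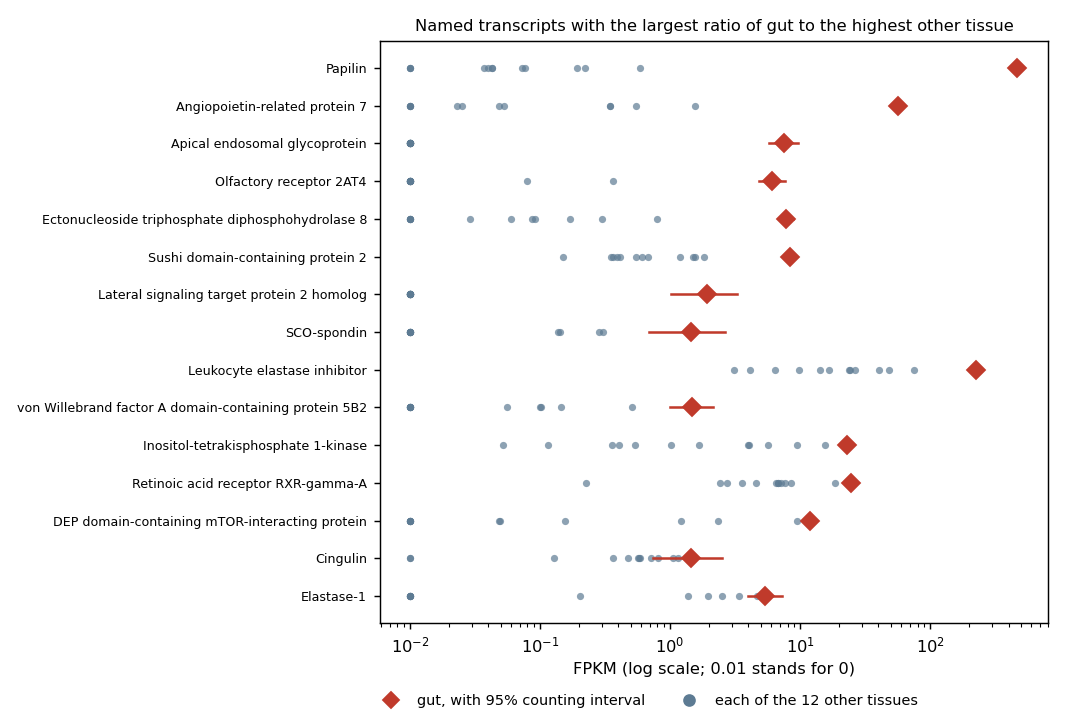
FPKM (horizontal, log scale) of the 15 named transcripts with the largest ratio of gut to the highest other tissue, gut as red diamonds with 95% counting intervals and the other 12 tissues as grey dots. Papilin at 465 FPKM in gut is the farthest from its next tissue, whereas the intervals of cingulin and elastase-1 overlap values of other tissues.

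Below these, gut was first by under 2-fold on the deposited FPKM in several named transcripts. Inositol-tetrakisphosphate 1-kinase, an enzyme of inositol phosphate synthesis, was at 23.0 FPKM in gut against 15.6 in testis, 1.47-fold (1.32 to 1.63), with gill next at 9.50 FPKM. Its ratio was 2.15 with median-of-ratios size factors and 2.11 with the 100 most abundant transcripts left out. Retinoic acid receptor RXR-gamma-A, the partner of many nuclear receptors, was at 24.4 FPKM in gut against 18.4 in spleen, 1.33-fold (1.18 to 1.50), but its ratio was 0.94 with median-of-ratios size factors. DEP domain-containing mTOR-interacting protein, which binds and restrains the growth kinase mTOR, was at 11.96 FPKM in gut, 9.39 in kidney, 2.34 in liver and 1.22 in stomach, and at 0.156 FPKM or less in the other 9 tissues. This gave 1.27-fold over kidney (1.12 to 1.45). Cingulin, of tight junctions, had 12 fragments in gut and 10 in kidney, a ratio of 1.26 (0.498 to 3.25), and its ratio was 0.49 with the size factors and 0.93 with the abundant transcripts left out.

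Renin, the enzyme that starts the renin-angiotensin cascade and is known from the kidney, was the named transcript among those shared by gut and kidney. It was at 13.1 FPKM in gut (478 fragments), against 23.7 FPKM in kidney (905 fragments). Head kidney followed with 0.495 FPKM, and 7 of the 13 libraries had no fragment. Gut was thus 1.81-fold below kidney (1.62 to 2.02) and far above every other tissue.

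Markers of other organs gave the following. Each list here and below holds only the names drawn up for it. Other named transcripts of the same function can lie outside it. Of 3 transcripts named elastase-1, a digestive protease of the pancreas, 2 had 10 or more gut fragments and 1 had none. The first was at 5.41 FPKM in gut (45 fragments), against 4.64 FPKM in gill (39 fragments), 3.38 FPKM in head kidney and 1.95 FPKM in stomach, and gut and gill could not be told apart (ratio 1.17, 0.743 to 1.84). The second was at 7.10 FPKM in gut against 8.10 FPKM in stomach (ratio 0.876, 0.592 to 1.29). Transcripts of 1 name may share reads, and the sources used here do not say how such reads were counted. The 1 named gastric enzyme had 0 fragments in gut, against 172 FPKM in stomach. Of the 9 named members of the striated muscle list, 8 had 0 fragments in gut and none had 10. Of all 922 named transcripts, 482 had 0 fragments in gut and 688 had under 10. The summed level of the 9 was 0.235 FPKM in gut against 17.7 in muscle and 10.96 in gill. Spleen (4.17 FPKM), brain (3.99 FPKM) and eye (3.48 FPKM) were also above heart (1.80 FPKM). The sum was 0.217 FPKM in nose, 0.194 in stomach, 0.172 in liver and 0 in testis. The part of striated muscle in the gut piece was not tested.

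Of the 3 named members of the list of liver plasma proteins, 1 had 0 fragments in gut and 2 had 10 or more, at levels far below those in liver. Hemopexin, the carrier of free haem, was at 6.31 FPKM in gut (203 fragments) against 5920 FPKM in liver, 938-fold lower (818 to 1082), and protein AMBP, the precursor of alpha-1-microglobulin, at 5.28 FPKM against 3710 in liver, 703-fold lower (598 to 833). Gut was eighth of 13 tissues for hemopexin and the fourth for AMBP. No transcript was named as haemoglobin. The part of blood or of neighbouring organs in the gut values was not tested.

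The lists of intestinal functions were thinly named, and most of their named members had under 10 fragments in gut. So did 688 of all 922 named transcripts, 482 of them with 0. Of the 26 named members of the list of solute carriers and ion transporters, 16 had 0 fragments in gut and 2 had 10 or more. These were solute carrier family 25 member 38-A, a mitochondrial carrier, at 5.04 FPKM in gut against 6.96 in liver, and riboflavin transporter 2, at 0.819 FPKM in gut against 8.83 in gill. Of the 8 named members of the list of mucus, lectins and epithelial defence, 7 had 0 fragments. The other, natterin-4, of a family first known from fish venom, was at 6.05 FPKM in gut against 6.93 in liver, a ratio of 0.873 (0.712 to 1.07), so that gut and liver could not be ordered, while testis came next at 1.97 FPKM and all others were at or below 0.436 FPKM. None of the 4 named members of the xenobiotic metabolism list had 10 gut fragments.

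Of the 4 named members of the list of lipid uptake, lipoproteins and retinoids, 3 had 10 or more gut fragments, and gut was highest for 0 of them. Beside the 7.50% of all transcripts highest in gut, so few leave little to be read. RXR-gamma-A, highest in gut on the deposited FPKM as given above, is not in this list. Phosphatidylcholine-sterol acyltransferase, also outside it, was at 3.75 FPKM in gut against 7.54 in liver. Fatty acid-binding protein, brain, was at 3.82 FPKM in gut, against 2181 FPKM in brain, 1524 in head kidney and 1052 in kidney, and only liver and muscle were lower than gut. Retinol dehydrogenase 14, an enzyme of retinoid metabolism, was at 3.90 FPKM in gut against 6.98 in testis. Long-chain fatty acid transport protein 6 was at 0.966 FPKM in gut against 6.81 in brain. Of the junction proteins, claudin-11 was at 1.94 FPKM in gut against 5.23 in brain, with gut seventh of the 13.

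The wall of the gut also holds muscle, immune cells and nerves. The smooth muscle list had 1 member with 10 or more gut fragments of 2 named, cGMP-dependent protein kinase 1, at 1.56 FPKM in gut against 2.41 in eye, where the interval of the difference included no difference (1.54-fold lower, 0.942 to 2.56). Of the 15 named members of the list of lymphocytes and cytokines 6 passed, and gut was highest for 0 of them, where the 7.50% of all transcripts leaves little to be read from so few. Leukocyte elastase inhibitor, highest in gut as given above, is not in this list. GTPase IMAP family member 4, of lymphocytes, was at 2.44 FPKM in gut against 6.98 in nose. Interleukin-17D was at 1.38 FPKM in gut against 7.41 in eye, and chemokine XC receptor 1 at 0.582 FPKM in gut against 3.78 in gill. Alveolar macrophage chemotactic factor 2, a chemokine for neutrophils, was second in gut, at 0.822 FPKM against 2.23 in kidney.

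Of the 64 named members of the list of neurons and synapses, 47 had 0 fragments in gut, as did 482 of all 922 named transcripts. Of the 64, 3 had 10 or more, and gut was highest for 1 of these, too few to set beside 7.50%. This was gamma-aminobutyric acid receptor subunit rho-1, at 2.47 FPKM in gut against 2.43 in testis, with 44 fragments in each. The interval of its ratio included no difference (1.02, 0.654 to 1.58). Neuronal pentraxin receptor, of synapses, was at 0.593 FPKM in gut against 21.9 in brain, where gut nevertheless stood the third of 13. Potassium voltage-gated channel subfamily KQT member 5 was at 0.644 FPKM in gut against 13.4 in head kidney. Some named channels and receptors outside the list also passed. G protein-activated inward rectifier potassium channel 1 was at 4.62 FPKM in gut (364 fragments) against 15.4 in heart, with gut at rank 3. One transcript named 5-hydroxytryptamine receptor 2A was at 1.82 FPKM in gut (45 fragments) against 4.38 in brain, with gut second. Of the 11 named members of the list of hormones, enteroendocrine factors and nutrient receptors, 2 passed. Insulinoma-associated protein 1, a factor of endocrine cell development, was at 0.721 FPKM in gut against 6.03 in brain. The extracellular calcium-sensing receptor was at 0.229 FPKM in gut against 2.85 in spleen. Orexin, a hormone outside the list, had 22 fragments in gut, at 0.526 FPKM against 4.77 in spleen.

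Of the 25 named members of the list of transcription factors of position and identity, 18 had 0 fragments in gut and 3 had 10 or more. Of all 922 named transcripts, 482 had 0 and 234 had 10 or more. Homeobox protein Hox-C6a, which marks position along the body, was second in gut with 11 fragments, at 1.49 FPKM against 4.79 in spleen, and 9 libraries had 0. Forkhead box protein I1, known from ion-transporting cells, was at 0.742 FPKM in gut against 43.5 in gill, and paired mesoderm homeobox protein 1 at 1.41 FPKM in gut against 27.0 in nose. Other named transcription factors outside the list also passed. Among them, heart- and neural crest derivatives-expressed protein 2 was at 7.82 FPKM in gut (260 fragments) against 17.6 in heart, with gut at rank 3. Insulin gene enhancer protein ISL-2A was at 1.65 FPKM in gut against 3.37 in spleen.

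All 6 named members of the cell division list had 10 or more gut fragments, and gut was highest for 0 of them, again too few to set beside 7.50%. The mitotic driver G2/mitotic-specific cyclin-B2 was at 7.85 FPKM in gut against 1651 in testis. Securin, which restrains the separation of sister chromatids, was at 7.79 FPKM in gut against 933 in testis. For both, gut was the fourth, after testis, kidney and head kidney. Centrosomal protein of 55 kDa, of cell separation, was at 1.12 FPKM in gut against 87.5 in testis, and centromere protein X at 1.21 FPKM in gut against 4.19 in kidney.

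Of the 10 named transcripts with the highest levels in gut, Papilin and leukocyte elastase inhibitor have been described above. The highest was 40S ribosomal protein S14, at 3672 FPKM in gut, against 999 to 5436 FPKM in the others (median 3256), and gut was sixth. The 4 named ribosomal proteins summed to 5371 FPKM in gut, against 1272 to 7941 FPKM in the other tissues. Thymosin beta-11, an actin-binding peptide, was at 2389 FPKM in gut, close under head kidney (2397) and spleen (2599), with liver at 109. ADP/ATP translocase 2, the mitochondrial exchanger of nucleotides, was at 2222 FPKM in gut against 3886 in heart.

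The rest of the 10 were 60S ribosomal protein L39 at 742 FPKM in gut against 1198 in stomach, 40S ribosomal protein S27 at 658 against 1129 in head kidney, and 60S ribosomal protein L22 at 299 against 414 in head kidney. Coiled-coil-helix-coiled-coil-helix domain-containing protein 2, mitochondrial, was at 172 FPKM in gut against 215 in liver. Translocon-associated protein subunit delta, of protein import into the endoplasmic reticulum, was at 141 FPKM in gut against 240 in liver. Of the respiratory chain list, cytochrome c oxidase subunit 5B was at 58.9 FPKM in gut against 491 in heart, and electron transfer flavoprotein subunit beta at 54.8 FPKM in gut against 169 in liver.

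The largest part of the gut library was made up of transcripts without a name here. The 10 with most fragments held 33.32% of the library (33.30 to 33.34), against 3.95% to 57.5% in the other tissues (median 23.7%), and gut ranked the fifth. Of these 10, gut was highest for 5. The most abundant by level was at 41756 FPKM in gut, second to 47115 FPKM in liver. The next, which held 3.33% of all gut fragments, was at 32069 FPKM in gut against 3674 in liver, 8.73-fold (8.67 to 8.79). Another, at 11647 FPKM in gut against 170 in liver, was 68.6-fold higher (66.6 to 70.6). These were singled out after their values were seen.

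The largest ratios of all belonged to unnamed transcripts. One of 757 bases was at 1827 FPKM in gut (26096 fragments), against 0 to 0.656 FPKM in the other tissues (median 0.386), 2786-fold over eye with its 10 fragments (1514 to 5807). The second, of 2500 bases, was at 3569 FPKM in gut (168335 fragments), against 0 to 1.36 FPKM elsewhere, 2619-fold over gill (2054 to 3393), and 5 libraries had no fragment of it.

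Gut was second highest for 1136 transcripts (6.18%). Nose was above it for 226 of these, brain for 202, spleen for 153, testis for 123 and kidney for 94, while stomach was above it for 83.

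Gut was the lowest tissue for 59 of the 18384 transcripts (0.321%), where the other libraries ran from 7 to 3903, and 3 were at least 2-fold under the lowest other tissue with an interval under 1 (0.0163%). The minimum of 10 gut fragments itself removes transcripts low in gut: 13122 had fewer there and 10 or more in another library. Stomach was next lowest for 23 of the 59, muscle for 9 and liver for 8. The count moved strongly with the scaling, to 20 with TPM and 404 with median-of-ratios size factors, and it was 232 without the stomach library, 154 without liver and 110 without muscle.

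Both unnamed transcripts that were lowest in gut relative to the next tissue had stomach there. One was at 0.889 FPKM in gut against 2.57 in stomach and 12.5 in gill, 2.89-fold below stomach (2.20 to 3.83). The other was at 0.663 FPKM in gut against 1.62 in stomach and 42.0 in kidney, 2.45-fold below stomach (1.73 to 3.52). The 1 named transcript for which gut was lowest was SPRY domain-containing SOCS box protein 4, of a family that marks proteins for breakdown. It had 14 fragments and 0.454 FPKM in gut against 0.611 FPKM in heart and 23.0 in testis, and the interval of its ratio to heart included no difference (1.35-fold lower, 0.639 to 2.90).

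Other named transcripts were chosen by a small ratio to the lowest other tissue, and gut was not lowest for them. Protein DPCD, of motile cilia, was at 2.12 FPKM in gut against 1.61 in liver and 9.61 in testis. Gut was at rank 9 of 13 for DPCD, with a ratio to liver of 1.32 (0.813 to 2.14). 2-methoxy-6-polyprenyl-1,4-benzoquinol methylase, an enzyme of coenzyme Q synthesis, was at 2.21 FPKM in gut against 1.68 in stomach and 26.3 in testis. Here gut was at rank 10, with a ratio to stomach of 1.32 (0.882 to 1.97). Methyltransferase-like protein 2-A was at 5.24 FPKM in gut against 3.60 in brain, a ratio of 1.46 (1.13 to 1.89), with gut at rank 11. Separately, 8 transcripts had 10 or more fragments in all the other 12 libraries and fewer in gut. Of the 18384 transcripts, 282 had 10 or more in gut and fewer in every other library. Both counts rest on the limit of 10 fragments alone, with no ratio or interval required, so the 282 are not all absent elsewhere.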

How the data were processed

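Total RNA of 13 tissues of 1 fish was sequenced as paired ends. Per the study's methods, the authors trimmed reads with Trimmomatic, assembled them with Trinity and reduced the assembly to 1 transcript per locus, merging near-identical copies. The sources used here do not name the program that mapped and counted reads. The deposited tables give raw fragment counts per transcript, and FPKM values, which the authors scaled by transcript length and library total. Such scaling lets a few very abundant transcripts of 1 library lower all its other values.

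Transcripts with 10 or more fragments in gut were kept. Ratios of FPKM were given exact 95% intervals (Clopper-Pearson on the fragments of both libraries), for counting error only. Names came from rows of the study's annotation table equal in all 26 values to 1 transcript, and from gene models with the same length within 20% and equal fragments, or equal within 1 fragment or 0.1% above 1000 fragments. Of 922 named transcripts, 234 passed. The text names the 15 with the largest ratio, the 10 highest in gut, up to 4 of each of 20 lists, the 5 lowest, and 2 unnamed ones at each end. Some results that this rule takes in are not reported here. Members and lists were chosen with earlier results of these data known. Alternatives were other minima, scalings, thinning, left-out tissues and naming rules. The functions were tested on simulated data. Python 3.11.15 with numpy 2.4.6, pandas 2.3.3 and scipy 1.17.1 was used.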

Additional observations from a re-analysis of the deposited data

How the results depend on the processing

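The counts of transcripts called at 2-fold, 10-fold and 100-fold in gut stayed within 1.5 times of the values given under the other minima, thinning, the 3 scalings and the leaving out of any tissue. Against the mean of the other 12 tissues, 2353 transcripts passed 2-fold, 623 passed 10-fold and 43 named ones passed 2-fold. The count with gut lowest was 20 with TPM, 404 with median-of-ratios size factors and 335 with the 100 most abundant transcripts left out of the totals. With these scalings the median log2 ratio of gut to the highest other tissue was -2.38, -1.90 and -1.86, beside -2.25 on the deposited FPKM. Under them, RXR-gamma-A had a ratio of 0.94 with size factors, and cingulin 0.49 with size factors and 0.93 with the abundant transcripts left out. The 20 most abundant transcripts held 38.1% of gut fragments, and the 10 highest by FPKM 31.9%. Leaving out each tissue in turn gave 1395 to 1605 transcripts highest in gut, 643 to 725 at 2-fold, 225 to 271 at 10-fold, 59 to 232 lowest, 1150 to 1425 second highest and 9 to 12 named at 2-fold. The settings for 5-fold, 100-fold, single named transcripts and pairs of tissues were chosen after seeing the data. No paired analysis was possible because every tissue has 1 library with the same replicate number. Ratios of transcripts with few fragments are limited by depth, as their intervals show.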
